A study of Mus musculus with 12 samples.

Results

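LPA1-GFP positive cells of the adult mouse dentate gyrus were compared with the GFP-negative cells of the same tissue. The comparison took all 8 LPA1-GFP positive libraries, which were 4 labelled stem and 4 labelled progenitor, against the 4 libraries labelled niche, so that it used all 12 libraries of the series. The libraries were grouped by their marker labels alone. All mice were 8 weeks old and carried the same reporter, STOCK Tg(Lpar1-EGFP)GX193Gsat/Mmucd, in which a transgene of the lysophosphatidic acid (LPA) receptor gene Lpar1 drives green fluorescent protein. The line began on FVB/N-Swiss Webster and was brought into C57BL/6 by in vitro fertilisation. Stem cells were sorted as GFP+EGFR+Prominin1+, progenitor cells as the 3 other GFP-positive combinations of EGFR and Prominin-1, and niche cells as GFP- alone. RNA of 1000 cells per library was amplified before sequencing. Whether each replicate came from 1 animal or from a pool is not in the labels, and the p-values therefore reflect library-to-library spread that may in part be technical. The series' design text has each of 4 replicates give the 3 populations. The replicate number entered only 1 alternative, as a block.

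The dentate gyrus is a part of the hippocampus in which neurons are made throughout adult life. Radial glia-like stem cells divide rarely and give rise to intermediate progenitors, which express Eomes and divide several times before they become neuroblasts and then granule neurons. LPA is a signalling lipid, and its receptor LPA1 is a G protein-coupled receptor known from neural precursors and from oligodendrocytes.

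Of the 3 sort markers the gene of EGFR was checked, and those of LPA1 and Prominin-1 were not analysed here. Egfr stood at 36.8, 24.7, 38.6 and 36.4 RPKM (reads per kilobase of gene and unit of library size, here scaled between libraries by trimmed means of M-values, TMM) in stem replicates 1 to 4. It stood at 1.10, 7.49, 3.84 and 9.98 in progenitor and at 21.9, 8.65, 2.26 and 1.22 in niche. It was high in all stem libraries, and niche replicate 1 came near them. The label of the stem group was met by this marker, while the difference of both GFP-positive groups from niche was not called (log2 difference 1.13, SE 0.59, adjusted p = 0.187). Without niche replicate 1 it was called (1.71, adjusted p = 0.0257).

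Library totals ran from 7597256 to 22854036 reads, and 8360 genes were tested. The deposited table listed 10749 genes and held only a part of each gene list below, such as 24 of 54 DNA replication and 35 of 69 mitosis genes. Every named gene with a promoter looked up lay on the plus strand, and minus-strand genes that overlap the top genes were not tested. Whether the table left out minus-strand genes as a whole was not tested. A list gene missing from it is not shown to be low or unchanged. Some libraries stood apart. Niche replicate 1 had a TMM factor of 0.418 against 0.820 to 0.958 in the other niche libraries, and 33.0% of its reads came from the alpha-globin genes, against 2.62% to 10.9% in the others. Progenitor replicate 1 had a factor of 0.917, below the 1.11 to 1.25 of the other GFP-positive libraries. Counts that moved by more than 1.5 times without a library are given beside the results.

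Between the mean of both GFP-positive groups and niche, 898 genes were higher (10.7% of those tested) and 857 lower (10.3%) in the GFP-positive libraries. The call was an adjusted p under 0.05 in limma's test. The median difference over all tested genes was 0.13 on the log2(RPKM + 1) scale, on which all differences below are given. When libraries were scaled by their totals alone, that median was 0.60 and 81.6% of the calls were higher, against 51.2% with TMM scaling.

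A gene was taken as shared where stem against niche and progenitor against niche were both called in the same direction. Stem against niche gave 910 higher (10.9%) and 896 lower genes (10.7%), and progenitor against niche 475 (5.68%) and 483 (5.78%). There were 303 shared genes higher (3.62% of those tested) and 355 lower (4.25%). Both comparisons use the same 4 niche libraries, so the number of shared genes is not independent support for either. The remaining 595 higher genes of the pooled contrast were called in stem alone in 404 cases, in progenitor alone in 109 and in neither in 82. Of the remaining 502 lower genes, 380 were called in stem alone, 63 in progenitor alone and 59 in neither. Without niche replicate 1 the shared genes numbered 434 higher and 752 lower. Without any one of progenitor replicates 2 to 4 they numbered 165 to 189 higher and 230 to 236 lower.

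**Figure D1:**
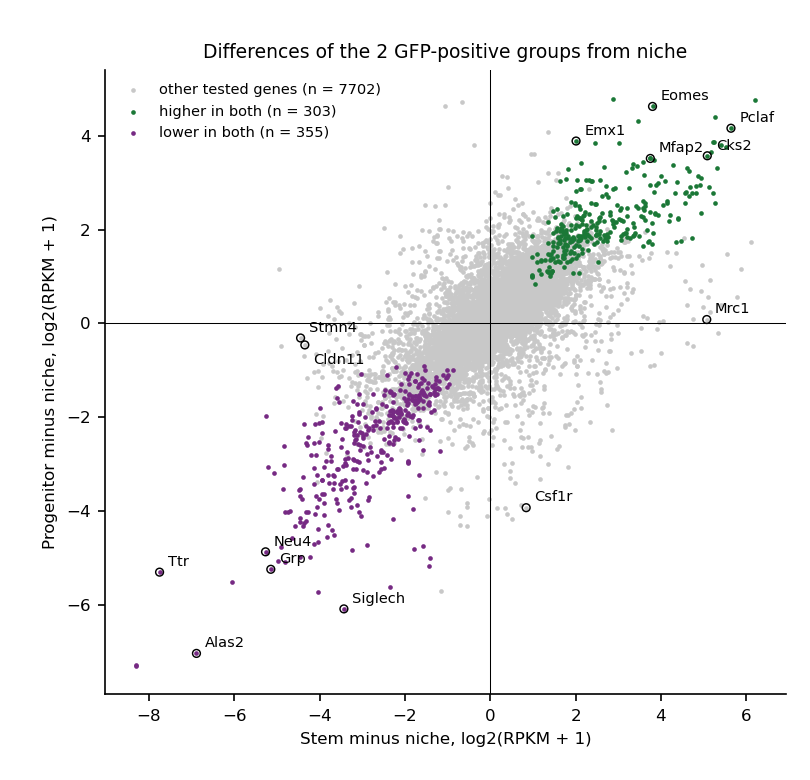
Difference from niche of the stem group (horizontal axis) and of the progenitor group (vertical axis) for the 8360 tested genes, both in log2(RPKM + 1), with 1 point per gene and n = 4 libraries per group. The 303 genes higher and the 355 lower in both groups are coloured, and named genes are circled. Both axes share the niche libraries, so a tilt along the diagonal is built in. Cldn11, Stmn4, Mrc1 and Csf1r lie away from the diagonal.

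The shared genes were mostly protein-coding, 253 of the 303 higher and 318 of the 355 lower, as were 6938 of all 8360 tested genes. The shared higher genes were low in niche, with a median over genes of 2.35 RPKM there and 20.24 RPKM in the GFP-positive libraries. The shared lower genes had medians of 50.23 RPKM in niche and 5.32 RPKM in the GFP-positive libraries. In 255 of the 303 and 261 of the 355, no GFP-positive library overlapped a niche library. Over all tested genes such a gap was found for 425 genes above niche (5.08%) and 371 below (4.44%). Between stem and progenitor themselves, 594 genes were called (7.11% of those tested), 310 higher in stem (3.71%) and 284 lower (3.40%). Among shared genes, 38 of the higher ones were called higher in stem than in progenitor and 1 lower, and 8 and 27 of the lower ones. The 95% interval of the difference between stem and progenitor lay within 1 log2 unit of 0 for only 38 of the 303 and 47 of the 355, so for most shared genes equal levels in both groups were not shown.

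Genes of cell division were higher in both GFP-positive groups. Of 24 tested DNA replication genes (of 54 listed), 22 were higher in the pooled contrast, none was lower and 16 were higher in both groups. Of 35 tested mitosis genes (of 69), 33 were higher, 25 of them in both groups, or 16 without progenitor replicate 2, 3 or 4. The median difference was 2.55 for replication and 2.91 for mitosis, against 0.13 over all tested genes. Stem was further from niche than progenitor, with medians of 3.17 and 1.87 for replication and 3.78 and 2.13 for mitosis. Between stem and progenitor, 8 replication genes and 21 mitosis genes were higher in stem. Gins3 and Orc1 in the replication list and Spag5 in the mitosis list were not called. Zwint, a kinetochore protein gene that neurons also express, was the 1 mitosis gene called lower (-0.79, SE 0.27, adjusted p = 0.049), and that call was lost under 11 of the alternatives tried.

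Cks2, a small subunit that binds cyclin-dependent kinases, showed the graded order most plainly. It stood at 513, 399, 553 and 583 RPKM in stem replicates 1 to 4 and at 185, 155, 162 and 210 in progenitor. Its niche levels were 12.8, 13.5, 11.5 and 19.0. Stem and progenitor did not overlap. Genes with the largest shared difference, such as Cks2, were picked only where GFP-positive and niche libraries did not overlap. The gap of these top genes to niche was therefore fixed by the choice. The pooled difference was 4.33 (SE 0.22, adjusted p = 2.1e-08), and stem exceeded progenitor by 1.51 (adjusted p = 0.0019).

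Pclaf, a factor that binds the sliding clamp of DNA replication, stood at 114, 106, 177 and 162 RPKM in stem. It stood at 52.9, 41.5, 42.2 and 58.1 in progenitor and at 3.03, 0.764, 1.06 and 2.91 in niche. The order of the groups was the same as for Cks2, with no overlap of stem and progenitor, and the gap to niche was likewise fixed by the choice. The pooled difference was 4.90 (SE 0.32, adjusted p = 2.29e-07).

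Other replication genes followed the same order. Rrm2, a subunit of the ribonucleotide reductase that makes the building blocks of DNA, stood at 224 to 420 RPKM in stem, 39.8 to 118 in progenitor, and in niche 4.37 to 10.2 (pooled difference 4.31, SE 0.32). Chaf1b, a subunit of the chromatin assembly factor that follows the replication fork, stood at 33.8 to 78.5, 8.23 to 21.7 and 0.436 to 1.35 (4.01, SE 0.38). Lig1, the ligase that joins fragments of the lagging strand, stood at 46.5 to 68.4, 17.3 to 27.7 and 0.309 to 4.87 (3.97, SE 0.39). For each of these genes the 3 groups did not overlap. The difference between stem and progenitor was called for Rrm2 (2.02, adjusted p = 0.0034) and Chaf1b (1.74, adjusted p = 0.023) and not for Lig1 (1.30, 95% interval 0.33 to 2.26, adjusted p = 0.11).

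Mitosis genes were near 0 in most niche libraries. Nusap1, a protein of spindle microtubules, stood at 95.8, 43.9, 85.3 and 78.4 RPKM in stem and at 1.41, 0.328, 0.510 and 2.23 in niche. In progenitor it stood at 2.94, 18.8, 16.9 and 24.0, with replicate 1 far below the others and close to niche. Prc1, which bundles microtubules of the central spindle, stood at 73.2 to 134 in stem, 14.1 to 29.5 in progenitor, and in niche 0.724 to 6.22. Aurkb, the kinase of the chromosomal passenger complex, stood at 53.1 to 104, 14.5 to 34.0 and 0.473 to 7.62. Pbk, a mitotic kinase, stood at 238 to 435 in stem, 94.4 to 138 in progenitor and 55.4, 2.06, 2.94 and 6.33 in niche replicates 1 to 4. The niche level of Aurkb, Prc1 and Pbk was highest in replicate 1. Pooled differences were 4.00 for Nusap1, 4.02 for Prc1, 4.02 for Aurkb and 4.60 for Pbk, all with an adjusted p of 3.71e-05 or less.

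Genes of mitosis are known to carry in their promoters CCAAT boxes, which bind the factor NF-Y, and the cell cycle homology region (CHR). The promoters of 5 genes higher in both GFP-positive groups are shown as examples that hold such letters, with matches on either strand in capitals. The same window of Nusap1, Lig1 and Chaf1b held no match. Each is the 130 bases before the RefSeq start on GRCm38.p6, given 5′ to 3′ on the gene's own strand, which is the plus strand for all 5. The first 3 genes are called in mitosis or chromatin lists, the fourth is a replication gene and the fifth is Eomes, the marker of intermediate progenitors.
Cks2, chr13:51645102-51645231: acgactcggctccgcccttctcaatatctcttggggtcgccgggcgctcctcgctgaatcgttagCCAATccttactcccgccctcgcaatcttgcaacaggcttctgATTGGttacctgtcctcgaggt
Prc1, chr7:80294321-80294450: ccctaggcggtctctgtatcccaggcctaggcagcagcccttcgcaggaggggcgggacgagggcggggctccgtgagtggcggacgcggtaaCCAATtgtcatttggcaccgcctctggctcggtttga
Hmgb2, chr8:57511713-57511842: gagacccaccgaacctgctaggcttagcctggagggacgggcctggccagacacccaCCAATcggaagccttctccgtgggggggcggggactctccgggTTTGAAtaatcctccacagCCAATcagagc
Rrm2, chr12:24708124-24708253: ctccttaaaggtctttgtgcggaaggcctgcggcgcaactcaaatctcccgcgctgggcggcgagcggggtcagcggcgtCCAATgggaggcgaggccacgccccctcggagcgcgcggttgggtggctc
Eomes, chr9:118478059-118478188: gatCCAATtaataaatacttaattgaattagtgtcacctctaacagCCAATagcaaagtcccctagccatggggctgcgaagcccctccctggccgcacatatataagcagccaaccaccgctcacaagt

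Over the 250 bases before each start, promoters were searched on both strands for CCAAT, for TTTGAA (the CHR) and for the E2F sites TTTCCCGC and TTTGGCGC. The motifs do not overlap one another in their letters. Of the 303 shared higher genes, 208 matched the RefSeq promoter table, with 260 promoters. CCAAT was found in 46.9% of these, in 34.1% of the promoters of all tested genes and in 27.7% of those of the shared lower genes. In the 25 promoters of shared mitosis genes it was found in 17 (68.0%), and in the 16 of shared replication genes in 8. TTTGAA was found in 9 of the 25 mitosis promoters (36.0%), in 0 of the 16 replication promoters and in 819 of the 7450 promoters of all tested genes. An E2F site was found in 12.5% of the replication promoters, 4.6% of the shared higher ones and 2.0% of all tested. These are counts of letters and not of bound sites, and they were not tested.

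Copies of Pclaf and Cks2 also ranked among the 12 genes with the largest shared difference. The processed pseudogenes Gm15428, Gm10087 and Gm2862 were 99.0%, 95.8% and 94.8% identical in sequence to Pclaf, and Gm12891 was 98.3% identical to Cks2. Gm15428 stood at 382 to 670 RPKM in stem, 156 to 224 in progenitor, and in niche 2.84 to 12.1, with a pooled difference of 5.48. Since reads of such copies may be shared with the parent gene, the 4 values are uncertain and do not count as separate observations. Gm2862 also lies within Myo10 on the same strand, and Myo10 itself stood at 18.2 to 44.5 in GFP-positive libraries and 1.55 to 18.1 in niche. Of the 303 shared higher genes 25 were annotated as pseudogenes of any kind, and of the 355 shared lower genes 8. Over all 8360 tested genes it was 618, so the shared higher genes were near the share of all tested genes.

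Lockd and Gm14024 were long noncoding RNAs in the same top group. Lockd, transcribed near the cell cycle inhibitor gene Cdkn1b, stood at 134 to 247 RPKM in stem, 78.4 to 122 in progenitor, and in niche 1.24 to 9.75 (pooled difference 4.83, SE 0.36). Gm14024 stood at 109 to 186, 33.1 to 67.0 and 1.32 to 4.16. Neither gene's GFP-positive libraries overlapped niche, which the choice of the top genes required. The end of Gm14024 overlaps the end of the mitotic gene Ckap2l on the opposite strand, and without known strand use in the counting the 2 cannot be told apart.

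**Figure D2:**
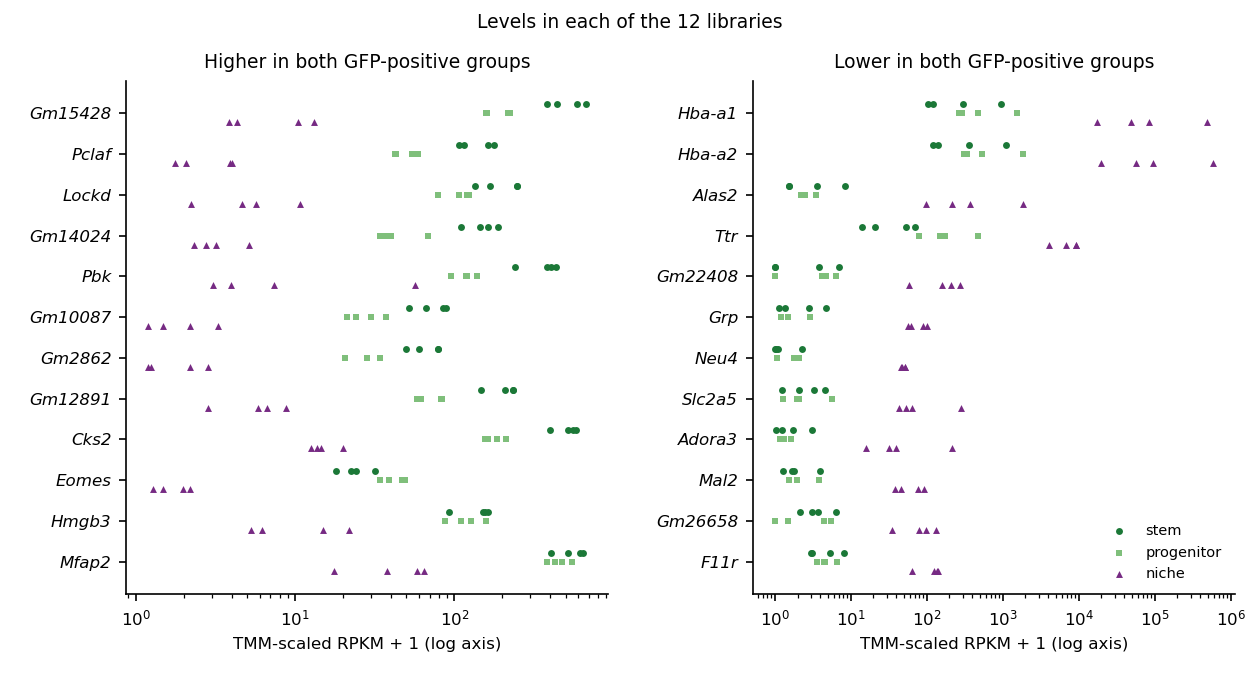
Level of the 12 higher and the 12 lower shared genes with the largest value of the smaller of the 2 differences, as TMM-scaled RPKM + 1 on a log axis, with 1 point per library and n = 4 per group. These genes were picked among those whose GFP-positive and niche libraries do not overlap. Among the higher genes the stem points lie to the right of the progenitor points for Cks2 and Pclaf, and to the left of them for Eomes.

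Of the genes that decide on entry into the cycle, fewer were called. Of 23 tested cell cycle control genes (of 45), 8 were higher in the pooled contrast, none was lower and 2 were higher in both groups, with a median of 0.52. Without niche replicate 4, 5 were higher. Cdk6, a kinase that acts in the first gap phase, stood at 149 to 263 RPKM in stem, 58.1 to 94.9 in progenitor, and in niche 4.90 to 12.1 (3.95, SE 0.29, adjusted p = 4.51e-07). Cdc25a, a phosphatase that activates cyclin-dependent kinases, stood at 4.01 to 13.9, 5.33 to 13.4 and 0.647 to 2.04 (2.07, SE 0.42). The stem and progenitor levels of Cdc25a overlapped fully (difference 0.01, 95% interval -1.02 to 1.03). Ccne2, a cyclin of the start of DNA synthesis, and Cdc25b were higher in the pooled contrast (2.44 and 2.11) and in stem. Neither was called in progenitor (adjusted p = 0.082 and 0.28 in limma's test). Their progenitor levels, 4.72 to 14.6 for Ccne2 and 0.985 to 11.1 for Cdc25b, overlapped niche.

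Among 22 tested chromatin and histone genes (of 40), 14 were higher and 3 were higher in both groups, with a median of 1.27. That count of 14 was 8 under median-of-ratios scaling, 8 without niche replicate 3 and 9 without niche replicate 2 or 4. The count of 3 was 7 without niche replicate 1, 5 without niche replicate 3 or progenitor replicate 1, and 14 when libraries were scaled by their totals. Hmgb2, a DNA-bending protein of dividing cells, stood at 478 to 834 RPKM in stem, 213 to 298 in progenitor, and in niche 25.3 to 51.6 (3.69, SE 0.25). Its relative Hmgb3 stood at 91.4 to 161, 86.7 to 156 and 4.26 to 20.9 (3.64, SE 0.37), with no detectable difference between stem and progenitor (0.22, 95% interval -0.68 to 1.12). Asf1b, a histone chaperone, stood at 46.2 to 86.6, 18.8 to 39.4 and 1.60 to 8.81 (3.09, SE 0.43). Hells, a chromatin remodeller, was higher in the pooled contrast (2.17) and not in both groups, with progenitor replicate 1 at 0.604 beside niche values of 0.0653 to 1.20.

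Of 25 tested splicing genes (of 45), 12 were higher, 5 of them in both groups, with a median of 0.99. The count of 12 was 22 when libraries were scaled by their totals and 17 without niche replicate 1. The count of 5 was 10 without niche replicate 1, 14 with scaling by totals, 2 with median-of-ratios scaling, and 3 without niche replicate 2 or 3 or without any one of the progenitor libraries. Hnrnpa1, an RNA-binding protein of splice site choice, stood at 955, 659, 1060 and 992 RPKM in stem and 699, 509, 607 and 609 in progenitor. Niche libraries had 147, 147, 151 and 196. All GFP-positive libraries lay above all niche libraries (2.20, SE 0.21, adjusted p = 3.61e-06). Ddx39, an RNA helicase, stood at 81.6 to 92.7, 26.7 to 45.7 and 0.932 to 15.8 (3.00, SE 0.45). Ptbp1, a repressor of neuronal splicing, was higher in the pooled contrast (1.67) and in stem (2.36) and was not called in progenitor. Lsm8, a part of the U6 particle, was higher in the pooled contrast alone (1.64), and that call was lost without stem replicate 3 or 4, progenitor replicate 1 or niche replicate 4.

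Transcription factors of the neuronal lineage did not follow 1 order between stem and progenitor. Of 15 tested neurogenic factors and Notch ligands (of 37), 9 were higher, none was lower, and Emx1, Eomes, Gadd45g, Neurog2 and Tcf4 were higher in both groups. The median difference was 1.11. Between stem and progenitor 1 member was higher in stem, which was the Notch ligand gene Dll4 (1.74, adjusted p = 0.038), and 3 were lower, among them Emx1. The pooled call of Dll4 (1.33) was lost without any one of 9 libraries (stem replicates 1, 3 and 4, progenitor replicates 2 to 4 and niche replicates 1, 3 and 4).

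Eomes (also called Tbr2), the T-box factor of intermediate progenitors, stood at 21.5, 17.1, 23.1 and 30.9 RPKM in stem. It stood at 45.9, 33.2, 37.7 and 48.2 in progenitor and at 0.978, 0.292, 0.480 and 1.18 in niche. Every progenitor library lay above every stem library, and both far above niche. The pooled difference was 4.21 (SE 0.34, adjusted p = 6.84e-07), while progenitor against stem was not called (stem minus progenitor -0.82, adjusted p = 0.29).

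Neurog2, the proneural factor that acts upstream of Eomes, stood at 9.96, 7.71, 11.9 and 11.5 RPKM in stem and at 10.9, 7.50, 10.9 and 13.5 in progenitor. The niche values were 0.388, 0.0832, 0.157 and 0.297. Stem and progenitor overlapped (difference -0.04, 95% interval -0.89 to 0.81), and neither overlapped niche (3.21, SE 0.35, adjusted p = 1.06e-05). Gadd45g, a stress and differentiation gene of neural precursors, stood at 166 to 273 in stem, at 94.8, 286, 317 and 285 in progenitor and at 10.1 to 58.1 in niche (2.73, SE 0.43). Emx1, a homeobox factor of the dorsal forebrain, was the 1 shared higher gene called lower in stem than in progenitor. It stood at 5.37 to 14.7 in stem, 28.6 to 55.0 in progenitor, and in niche 0.669 to 3.00 (2.95, SE 0.40, and stem minus progenitor -1.88, adjusted p = 0.02).

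Markers of neural stem cells and radial glia went both ways. Of 19 tested (of 35), 8 were higher and 4 lower in the pooled contrast. Msi1, Pax6, Sox1 and Tfap2c were higher in both groups and Id3 was lower in both. Sox1, a factor of neural precursors, stood at 17.4 to 34.0 RPKM in stem, 10.3 to 16.3 in progenitor, and in niche 0.585 to 6.60 (2.55, SE 0.42, adjusted p = 0.000513). Pax6, a homeobox factor of radial glia, stood at 6.65 to 10.1, 9.53 to 13.6 and 1.53 to 4.09 (1.53, SE 0.35). Tfap2c, an AP-2 factor, stood at 2.18 to 5.72, 1.5 to 5.32 and 0.0426 to 0.662 (1.79, SE 0.38), and Msi1, an RNA-binding protein of neural stem cells, at 18.3 to 28.6, 22.2 to 49.4 and 1.09 to 13.5 (1.80, SE 0.47). For none of these 4 did GFP-positive and niche libraries overlap, and none was called between stem and progenitor. The call in both groups was lost for Tfap2c without progenitor replicate 2, 3 or 4, for Pax6 without any one of 5 libraries (stem replicates 1, 3 and 4, progenitor replicate 4 and niche replicate 3) and for Msi1 without any stem or progenitor library or niche replicate 4. Msi1 also lost it with the replicate number as a block. Id3, an inhibitor of basic helix-loop-helix factors that is also abundant in endothelial cells and astrocytes, stood at 13.4 to 48.2 in stem, 275, 71.4, 76.3 and 81.1 in progenitor, and in niche 267 to 989 (-3.07, SE 0.44).

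Genes of young neurons were higher mainly in progenitor. Of 13 tested (of 31), 5 were higher (3 without niche replicate 4) and 2 lower in the pooled contrast, 3 were higher in both groups, and the medians were 0.16 for stem and 2.04 for progenitor. Dpysl5, a protein of growing axons, stood at 2.98 to 6.53 RPKM in stem, 8.48 to 20.6 in progenitor, and in niche 0.353 to 2.48 (2.43, SE 0.41). Marcksl1, a membrane-bound actin regulator, stood at 74.9 to 94.3, 64.7 to 135 and 4.10 to 27.1 (2.33, SE 0.40). Mex3a, an RNA-binding protein, stood at 6.40 to 21.0, 18.1 to 28.1 and 0.156 to 5.76 (3.00, SE 0.47). Stmn4, a tubulin-binding protein of neurons and oligodendrocytes, was lower in stem alone, at 1.12 to 9.29 against 37.6 to 138 in progenitor, and in niche 67.4 to 110.

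Mfap2, which encodes a glycoprotein of extracellular microfibrils, was 1 of the 12 top shared higher genes and belonged to no list. It stood at 614, 401, 518 and 636 RPKM in stem and 549, 430, 379 and 472 in progenitor. Niche replicates 1 to 4 had 16.5, 36.8, 57.2 and 63.4. Its GFP-positive libraries all lay above niche, which the choice of the top genes required (3.63, SE 0.31, adjusted p = 1.59e-06). Stem and progenitor differed by 0.24, which was not called (95% interval -0.53 to 1.001), and equal levels were not shown.

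The LPA pathway held 10 tested genes of 23 listed, of which 1 was higher and 5 lower in the pooled contrast. Lpar2, a second LPA receptor, was higher in both groups at low levels, 0.828 to 3.18 RPKM in stem, 1.38 to 3.23 in progenitor, and in niche 0.0331 to 0.184 (1.29, SE 0.32, adjusted p = 0.00964). Its pooled call held in all 22 alternatives, while its call in both groups was lost in 13 of 21, among them the replicate number as a block, median-of-ratios scaling, and leaving out any one library other than stem replicate 2, progenitor replicate 1 or niche replicate 1. Agpat1 and Agpat4, acyltransferases that turn lysophosphatidic acid into phosphatidic acid, were lower (-1.49 and -1.95). Agpat1 was lower in both groups, a call lost in 14 of 21 alternatives, among them the block and leaving out any one library other than progenitor replicate 1 or niche replicate 1. Agpat4 was lower in stem, at 6.91 to 20.9 against 48.8 to 119 in progenitor and 85.6 to 142 in niche. Plppr1, a membrane protein of the lipid phosphatase-related family, was lower in both groups (-2.73, SE 0.51), with 0.133 to 6.21 in GFP-positive and 9.56 to 28.9 in niche libraries. Plpp1, a phosphatase that degrades LPA outside the cell, stood at 5.07 to 9.18 in GFP-positive libraries and at 136, 27.9, 17.3 and 12.4 in niche (-1.92, SE 0.51), where replicate 1 was far above the rest.

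Interferon-induced genes were described from a list written after the first results were seen, so only counts and levels are given. Of 19 tested (of 32), 6 were higher and 1 lower, and Ifit3, Ifit3b and Stat2 were higher in both groups (5 genes without progenitor replicate 1). Ifit3, an antiviral protein with tetratricopeptide repeats, stood at 37.1, 57.5, 26.0 and 25.4 RPKM in stem and 22.4, 38.1, 15.6 and 38.8 in progenitor. It stood in niche at 1.69, 0.363, 5.24 and 0.691. Stem and progenitor overlapped (difference 0.35, 95% interval -0.76 to 1.46), and both lay above niche (3.66, SE 0.45). Ifit3b, a near copy of Ifit3 whose reads may not be separable from it, stood at 11.5 to 37.0 in the GFP-positive and 0.452 to 3.23 in the niche libraries.

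**Figure D3:**
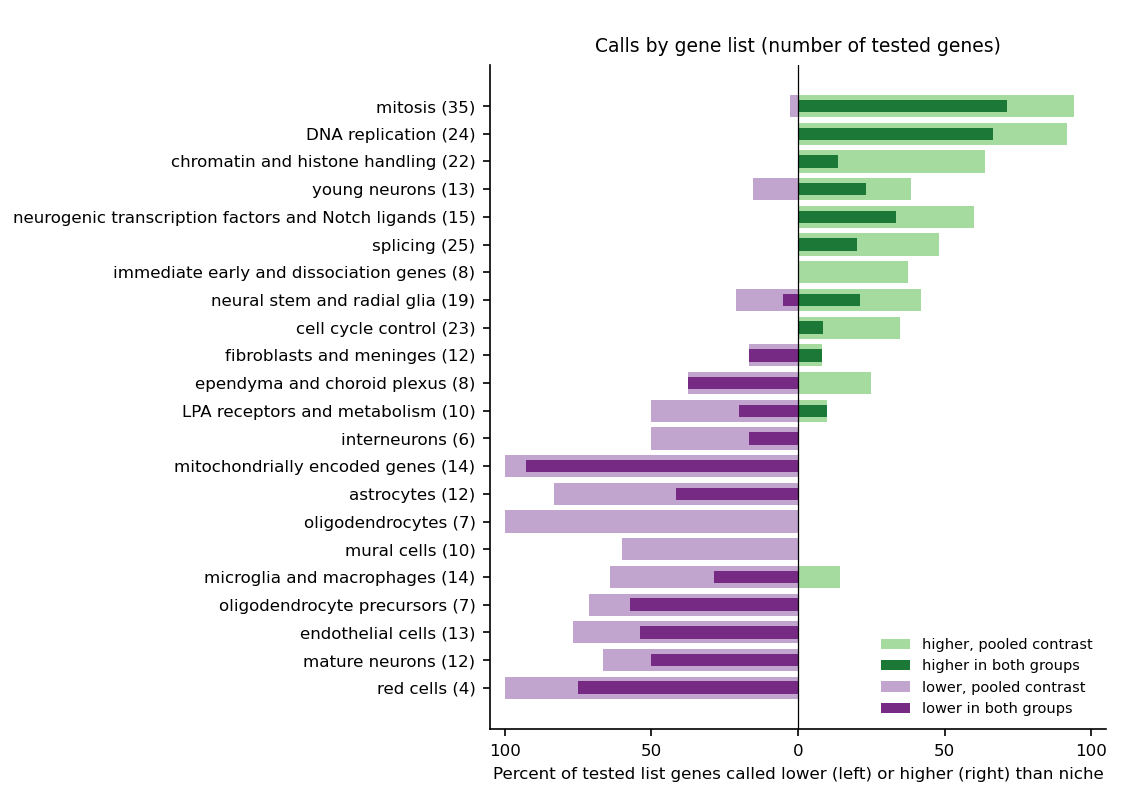
Percent of the tested genes of each list called lower (bars to the left) or higher (bars to the right) in the GFP-positive libraries, with the number of tested genes in brackets. Wide pale bars give the pooled contrast and narrow dark bars the calls in both GFP-positive groups. Of all tested genes 10.7% were called higher and 10.3% lower. Mitosis and DNA replication reach furthest to the right, while oligodendrocyte and mural genes have pale bars to the left and no dark ones.

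Among the genes lower in both GFP-positive groups, the list of red cell genes had the lowest median. All 4 tested red cell genes (of 15) were lower, 3 of them in both groups, with a median of -7.38. Hba-a1, an alpha-globin gene, stood at 952, 296, 120 and 104 RPKM in stem and 1542, 467, 290 and 264 in progenitor. Its niche levels were 491789, 83562, 17424 and 48856 (-7.80, SE 0.76). The lowest niche library lay above the highest GFP-positive library, and in each group replicate 1 was the highest. Alas2, the enzyme of heme synthesis in red cell precursors, stood at 0.546 to 7.41 in GFP-positive libraries and at 1826, 368, 96.9 and 213 in niche (-6.96, SE 0.65). Hba-a1 and Hba-a2 are near copies whose reads may not be separable. Bpgm, an enzyme of red cell glycolysis that other cells also express, was lower in the pooled contrast (-1.73) and not in both groups.

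The alpha-globin genes took 0.0200% to 0.228% of the reads in the GFP-positive libraries and 2.62% to 33.0% in niche. The difference of the mean shares was -13.2 percentage points (exact two-sided permutation test over 495 splits, p = 0.0040404, the smallest it can give). Without niche replicate 1 it was -6.67 points (exact two-sided permutation p = 0.012121). Mitochondrially encoded genes took 11.9% ± 1.71 (SD, n = 8) of the reads in GFP-positive libraries and 21.8% ± 4.65 (n = 4) in niche, with no overlap (exact two-sided permutation p = 0.0040404). All 14 tested mitochondrial genes were lower, 13 of them in both groups, with a median of -1.58. mt-Nd1, a subunit of respiratory complex I, stood at 3609 to 4384 in stem, 4047 to 4354 in progenitor, and in niche 15796 to 20175 (-2.13, SE 0.17, adjusted p = 6.84e-07). mt-Nd3, the gene of another complex I subunit, was not called in both groups, with progenitor replicate 1 at 8817 beside niche values from 7089. When scaling factors were computed without alpha-globin and mitochondrial genes, 300 shared higher and 365 shared lower genes were called. The part of blood or mitochondrial RNA in other differences was not tested.

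Genes of mature neurons were lower in both groups. In bulk libraries such as these, fewer cells of a type and less RNA of these genes per cell cannot be told apart. Of 12 tested genes (of 31), 8 were lower, 6 of them in both groups, with a median of -2.51. Without niche replicate 1, in which the list's median level was 1.54 on the log2 scale against 6.16 to 6.71 in the other niche libraries, 11 of 12 were lower in both groups and the median was -3.71.

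Snap25, a protein of synaptic vesicle fusion, stood at 9.41, 6.00, 8.73 and 5.31 RPKM in stem and 18.5, 29.0, 35.5 and 27.1 in progenitor. Niche libraries had 92.2, 132, 251 and 226, and no group overlapped another (-3.43, SE 0.33). Slc17a7, the vesicular glutamate transporter, stood at 0.216 to 3.74 in GFP-positive libraries and at 15.4, 86.6, 97.8 and 53.8 in niche (-4.42, SE 0.50). C1ql2, a synaptic organiser of granule neurons, stood at 0.0657 to 2.98 in GFP-positive libraries and at 1.01, 71.2, 76.9 and 80.6 in niche (-4.19, SE 0.80). Nefl, the light neurofilament, stood at 0.195 to 4.19 and at 1.05, 73.6, 109 and 57.7 (-3.52, SE 0.83). For C1ql2 and Nefl it was niche replicate 1 alone that overlapped the GFP-positive libraries. Nefl lost its call in both groups without niche replicate 2, 3 or 4 or without progenitor replicate 1, 2 or 4. Of 6 tested interneuron genes 3 were lower, 1 of them in both groups. Without niche replicate 1 these counts were 5 and 3, and without niche replicate 3 the first was 1, while without progenitor replicate 3 none was lower in both groups.

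Astrocyte genes were lower in the GFP-positive libraries, more so in stem. Of 12 tested (of 22), 10 were lower, 5 of them in both groups, with medians of -2.28 for stem and -0.98 for progenitor. F3, tissue factor, stood at 6.08 to 17.2 RPKM in stem, 29.9 to 40.9 in progenitor, and in niche 151 to 341 (-3.44, SE 0.30). S100b, a calcium-binding protein, stood at 8.67 to 19.1, 16.4 to 35.3 and 147 to 305 (-3.64, SE 0.31). Gja1, the astrocyte connexin, stood at 136 to 267, 321 to 509 and 886 to 1714 (-2.14, SE 0.25). For all 3 genes niche lay above every GFP-positive library, and for F3 and Gja1 stem lay below progenitor without overlap. Slc7a10, an amino acid transporter of astrocytes, was likewise lower in both groups (-2.43, SE 0.37), a call lost without progenitor replicate 2, 3 or 4.

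Oligodendrocyte precursors and mature oligodendrocytes differed in how the groups shared them. Of 7 tested precursor genes (of 18), 5 were lower, 4 of them in both groups, with medians of -2.16 for stem and -2.06 for progenitor. Pdgfra, the growth factor receptor that defines these precursors, stood at 0.768 to 4.19 RPKM in stem, 2.82 to 9.13 in progenitor and 10.6, 62.9, 74.3 and 33.3 in niche (-3.24, SE 0.52). Tnr, a matrix glycoprotein, stood at 0.0152 to 0.547, 0.166 to 0.535 and 2.54 to 24.2 (-3.13, SE 0.45), and Olig1, a lineage factor, at 14.6 to 24.1, 8.00 to 27.9 and 33.5 to 102 (-1.86, SE 0.38). Cspg4, the NG2 proteoglycan, stood at 0.261 to 1.27 in GFP-positive libraries and 0.321, 13.4, 17.1 and 8.05 in niche and was lower in the pooled contrast and in stem (-2.16, adjusted p = 0.028), not in progenitor. Its pooled call was lost without niche replicate 2 or 3. Neu4, a sialidase, was among the 12 genes with the largest shared loss, at 0.0145 to 1.28 in GFP-positive libraries and 50.3, 51.4, 45.1 and 46.4 in niche (-5.07, SE 0.38, adjusted p = 4.77e-07).

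All 7 tested genes of mature oligodendrocytes (of 20) were lower in the pooled contrast, yet none was lower in both groups, with medians of -3.59 for stem and -0.23 for progenitor. All 7 were called lower in stem than in progenitor. Cldn11, a tight junction protein of the myelin sheath, stood at 42.6, 26.3, 24.8 and 4.73 RPKM in stem and 909, 205, 357 and 123 in progenitor. In niche it stood at 1252, 401, 190 and 312. Stem lay far below and progenitor overlapped niche (stem minus niche -4.34, progenitor minus niche -0.46, stem minus progenitor -3.88, adjusted p = 0.0027). Mbp, a protein that compacts myelin, and Car2, a carbonic anhydrase, followed with stem minus niche differences of -3.05 and -3.61 and progenitor minus niche differences of -0.23 and -0.34. The pooled calls of these genes therefore rested on stem, and with the GFP-positive libraries taken as 1 group of 8, none of the 3 was called (adjusted p = 0.125 for Cldn11, 0.142 for Mbp and 0.102 for Car2).

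Genes of the vessel wall also split by cell type. Of 13 tested endothelial genes (of 25), 10 were lower, 7 of them in both groups (4 without progenitor replicate 3 or 4), with medians of -2.37 for stem and -2.16 for progenitor. Slc2a1, the glucose transporter of the blood-brain barrier, stood at 15.7 to 32.8 RPKM in stem, 38.7 to 45.3 in progenitor, and in niche 116 to 598 (-2.76, SE 0.37). Cldn5, a tight junction protein, stood at 0.0474 to 6.54 in stem, at 23.8, 2.65, 1.33 and 1.30 in progenitor and at 215, 52.3, 38.4 and 7.46 in niche (-3.46, SE 0.82). Bsg, a membrane glycoprotein, was also lower in both groups (-2.64, SE 0.57). The call in both groups was lost for Bsg without progenitor replicate 3 or 4, and for Cldn5 without any one of 7 libraries (stem replicate 1, progenitor replicates 2 to 4 and niche replicates 1 to 3). In both genes replicate 1 was the highest library of progenitor and of niche. Of 10 tested mural genes (of 17), 6 were lower in the pooled contrast (3 without niche replicate 2) and none in both groups, with medians of -2.65 for stem and -0.03 for progenitor. Higd1b, a pericyte gene, stood at 0.238 to 9.90 in stem, 40.2 to 278 in progenitor, and in niche 29.3 to 387.

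Genes of microglia and macrophages set the 2 GFP-positive groups far apart. Of 14 tested (of 33), 9 were lower and 2 higher in the pooled contrast, 4 were lower in both groups (2 without stem replicate 4), and all 14 were called higher in stem than in progenitor. The median difference from niche was 0.17 for stem and -4.02 for progenitor. Their summed level was 4059 to 15991 RPKM in stem, 178 to 455 in progenitor, and in niche 4087 to 8279.

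Csf1r, the receptor that microglia and macrophages need to survive, stood at 542, 1019, 325 and 307 RPKM in stem and 6.20, 24.5, 17.2 and 28.6 in progenitor. In niche it stood at 188, 313, 302 and 298. Stem reached or exceeded niche, and progenitor lay far below both, so the pooled difference of -1.55 describes neither group (stem minus niche 0.84, progenitor minus niche -3.93). Mrc1, a mannose receptor of macrophages at the borders of the brain, stood at 310, 740, 181 and 186 in stem, 4.78 to 13.7 in progenitor, and in niche 4.96 to 12.1. It was higher in stem alone (5.07, against 0.08 for progenitor). With the 8 GFP-positive libraries as 1 group, neither gene was called (adjusted p = 0.366 for Csf1r and 0.144 for Mrc1).

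Among genes of this class, those of resident microglia were lower in both groups. In a list of them written after the first results were seen, 8 of 9 tested (of 20) were lower, 7 of them in both groups, with medians of -3.43 for stem and -5.08 for progenitor. Siglech, a lectin of resident microglia, stood at 14.01, 26.3, 9.02 and 8.86 RPKM in stem and 0.265, 1.48, 2.23 and 1.47 in progenitor. In niche it stood at 174, 173, 113 and 156, and no group overlapped another (-4.76, SE 0.38, adjusted p = 6.84e-07). In a list of border macrophages, also written later, 8 of 8 tested (of 20) were higher in stem than in niche and 0 in progenitor.

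Slc2a5, a fructose transporter, stood at 0.248 to 4.68 RPKM in GFP-positive libraries and 278, 62.7, 41.7 and 52.4 in niche (-5.03, SE 0.56). Adora3, an adenosine receptor that overlaps the gene Tmigd3, stood at 0.0278 to 2.12 and at 213, 38.9, 30.8 and 14.9 (-4.95, SE 0.57). Both Gpr34, a lysophosphatidylserine receptor, and Ctss, a lysosomal protease, were lower in both groups, with stem above progenitor by 3.28 and 3.75. Ctss lost its call in both groups without stem replicate 3 or 4. For Slc2a5 and Adora3 stem and progenitor overlapped, and niche replicate 1 was the highest library.

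Genes of the choroid plexus were lower in both groups while other genes of ependyma were not. Of 8 tested (of 18), Ttr, Kcne2 and Kl were lower in both groups, and Ccdc153 and Sntn were higher in the pooled contrast and in progenitor. The pooled call of Sntn was lost without any one of 7 libraries (stem replicates 1, 2 and 4, progenitor replicate 2 and niche replicates 2 to 4). The list's median of 0.03 described neither, and it changed sign with the scaling and with left-out libraries. Ttr, which encodes the carrier of thyroid hormone made by the choroid plexus, stood at 69.2, 53.0, 20.02 and 13.1 RPKM in stem and 77.8, 148, 478 and 172 in progenitor. In niche it stood at 9365, 4106, 9178 and 6801, far above all others (-6.53, SE 0.48). Kcne2, a potassium channel subunit, stood at 0 to 1.97 in GFP-positive libraries and 11.5 to 62.0 in niche (-4.32, SE 0.47), and Kl, the klotho gene, at 0.0161 to 1.86 and 3.92 to 26.9 (-2.54, SE 0.47). Ccdc153, a gene of ciliated cells, was higher in progenitor, at 5.19 to 22.5 against 0 to 1.51 in stem and 0 to 0.147 in niche. Of 12 fibroblast and meningeal genes 9 were not called, while Aldh1a2, a retinoic acid enzyme, was higher in both groups (1.88, SE 0.43) and Igfbp2, a binding protein of growth factors, lower (-2.90, SE 0.44). The call in both groups was lost for Aldh1a2 without stem replicate 1, 2 or 3 or niche replicate 2, and for Igfbp2 without progenitor replicate 2, 3 or 4.

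Of the top 12 lower genes, 7 belonged to none of the main gene lists, among them Slc2a5 and Adora3 above. Grp, a neuropeptide gene, stood at 0.129 to 3.73 RPKM in GFP-positive libraries and 89.4, 55.8, 99.3 and 60.7 in niche (-5.19, SE 0.46). Mal2, a protein of membrane transport, stood at 0.290 to 3.01 and at 91.4, 44.4, 76.8 and 37.5 (-4.83, SE 0.43). F11r, a junctional adhesion molecule, stood at 2.00 to 7.19 and at 124, 141, 63.7 and 136 (-4.61, SE 0.39). Gm22408, annotated as a microRNA within Plppr4, and Gm26658, antisense to and overlapping Syt4, made up the rest, with differences of -5.78 and -4.72, and their reads cannot be told apart from those of the genes they overlap. For these 5 genes stem and progenitor overlapped. The highest GFP-positive library lay below the lowest niche library, which the choice of the top genes required.

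**Figure D4:**
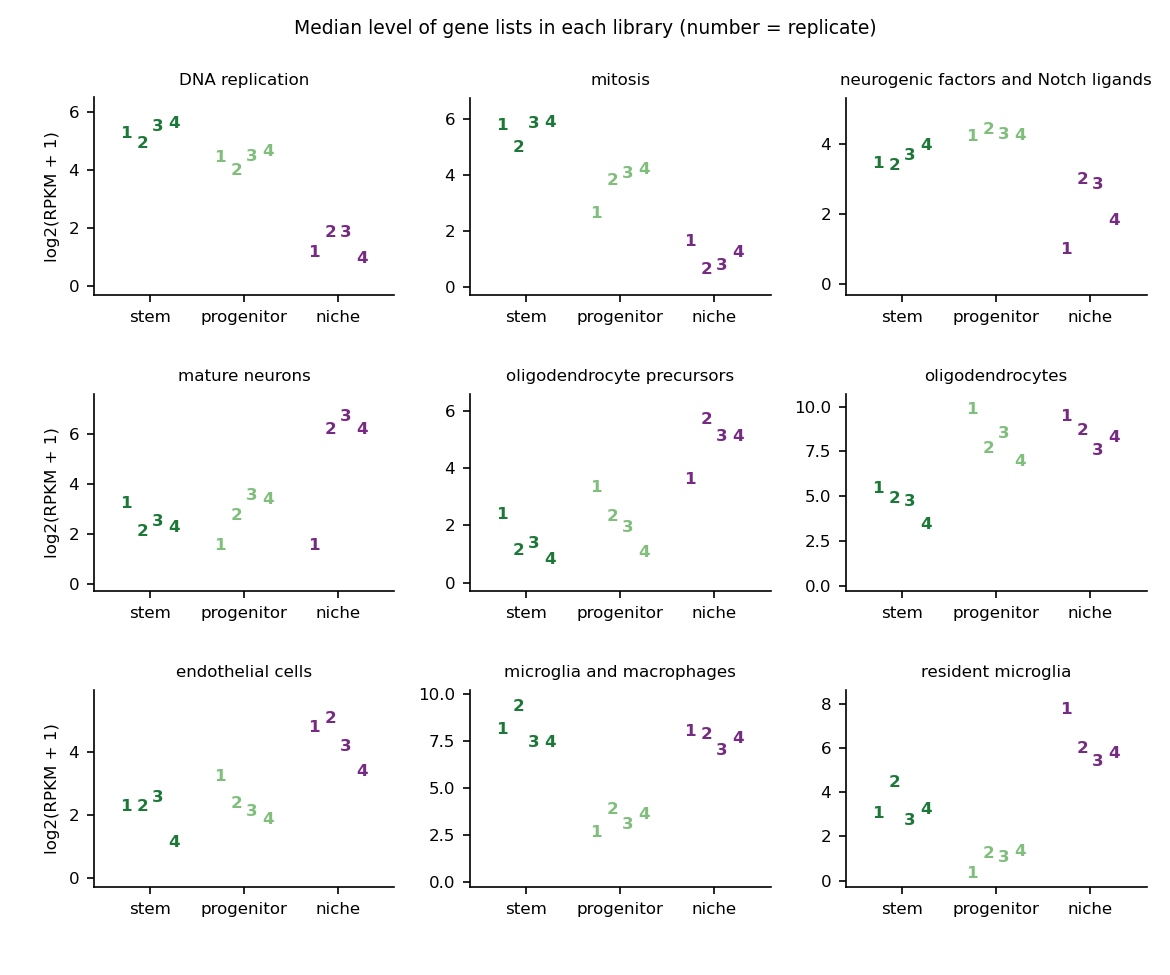
Median level of 9 gene lists in each library, in log2(TMM-scaled RPKM + 1), with digits for the replicate numbers, n = 4 per group. Replication and mitosis fall from stem over progenitor to niche. The neurogenic list lies above niche in both GFP-positive groups. Niche replicates 2 and 3, at 3.00 and 2.84, come near the lowest stem library at 3.38. The myelin genes of oligodendrocytes are low in stem alone, and the list of microglia and macrophages is low in progenitor alone. Niche replicate 1 lies apart in mature neurons, at 1.54 against 6.16 to 6.71.

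Immediate early genes, which respond within minutes to stimuli including tissue dissociation, were higher in stem. Of 8 tested (of 21), Egr1, Egr2 and Fos were higher in the pooled contrast, none was called in progenitor, and 5 were higher in stem than in progenitor. Fos stood at 841, 1459, 504 and 387 RPKM in stem and 23.5, 216, 159 and 190 in progenitor. In niche it stood at 13.6, 162, 93.3 and 96.6. Progenitor and niche overlapped, each with replicate 1 lowest. Without niche replicate 1 none of the 3 was called in the pooled contrast. Fos also lost that call without any one of 7 other libraries (stem replicates 1 and 2, progenitor replicates 2 to 4 and niche replicates 3 and 4), and Egr2 without any one of 6 (stem replicates 1 and 2, progenitor replicates 1 to 3 and niche replicate 4).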

How the data were processed

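RNA of 12 libraries of sorted dentate gyrus cells was sequenced. The authors deposited 1 table of log2 values, read here as log2(RPKM + 1). Per the submitters' processing notes the build was GRCm38 (mm10). Which aligner and counter were run, and whether strand was used, was not given in the sources at hand. Undoing the log gave whole reads for 100.0% of values (tolerance 1e-05 reads), with gene lengths annotated for 1232 genes and found from the values for 9278. Totals were 7597256 to 22854036 reads, of amplified RNA without molecular identifiers.

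Genes with 10 reads per median library (CPM 0.767) in at least 4 libraries and at least 15 reads in all were kept, 8360 of 10749 listed. RPKM were divided by TMM factors, 1 was added, and log2 values were fitted in limma 3.58.1 (R 4.3.3) with 1 mean per group, an intensity trend and robust spread. The contrast was the mean of stem and progenitor minus niche. P-values were adjusted by Benjamini-Hochberg over all tested genes, with a threshold of 0.05. Limma on log2 values was the planned test, with a count test only if the files held counts. The deposited values were log2 RPKM, so limma was kept. Recovered reads served for the filter, the scaling, the shares of reads and the voom alternative. Named genes were the 12 higher and 12 lower shared, non-overlapping genes with the largest value of the smaller of both differences, and up to 4 called genes per list with the largest pooled difference. Csf1r, Dll4, Egfr, Ifit3, Ifit3b, Lpar2, Mrc1, Myo10, Olig1, Pax6, Sntn and Zwint were chosen after their values were seen, and some genes are not reported here. The comparison and all gene lists were chosen with earlier results of these data known, while libraries were grouped by their labels. No replicate pair agreed within sampling noise (lowest chi-square per degree of freedom 39.1). The fit was tested on simulated data. Alternatives were other scalings, pseudocounts, no filter, voom, a replicate block, 1 group of 8, and left-out libraries.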

Additional observations from a re-analysis of the deposited data

Results flagged for a closer look

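Gene levels were compared on the log2 scale and shares of reads as percent. In 29 of 309 groups of 4 libraries, for 101 genes named above and 2 shares of reads in each of the 3 groups, 1 library lay apart from the rest. Its gap to the nearest library, as a share of the group's range, passed Dixon's 95% critical value for 4 libraries, which chance gives in about 1 of 20 groups. In progenitor, replicate 1 was lowest for Egr1 (gap 0.95 of the range), Fos (0.861), Gadd45g (0.911) and Tfap2c (0.834), and highest for Id3 (0.906), Igfbp2 (0.931), Lsm8 (0.905) and mt-Nd3 (0.847). Progenitor replicate 3 was highest for Kcne2 (0.92) and Tnr (0.939) and lowest for Ifit3b (0.833). Niche replicate 1 was lowest for C1ql2 (0.967), Csf1r (0.903), Egr1 (0.865), Marcksl1 (0.899) and Nefl (0.841), and highest for mt-Nd3 (0.933). Other niche cases were Dpysl5 (replicate 4 highest, 0.841), Hnrnpa1 (replicate 4 highest, 0.902) and F11r (replicate 3 lowest, 0.841). In stem, replicate 2 was lowest for Dpysl5 (0.845), Egfr (0.866), Hmgb3 (0.882), Myo10 (0.889) and Plpp1 (0.851) and highest for Ccdc153 (0.911) and Sntn (0.888). Stem replicate 1 was highest for Neu4 (0.887) and replicate 4 lowest for Aldh1a2 (0.892).

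For 37 of the 101 genes the 2 GFP-positive groups differed from each other, as stem minus progenitor at an adjusted p under 0.05 in limma's test. Over all 8360 tested genes it was 594 (7.11%). The 101 genes were named mostly for large differences or after their values were seen, so their share is no rate for the comparison. Genes of division were higher in stem, by 1.83 for Aurkb, 1.40 for Cdk6, 1.74 for Chaf1b, 1.51 for Cks2, 1.37 for Hmgb2, 2.43 for Nusap1, 1.48 for Pclaf, 2.24 for Prc1 and 2.02 for Rrm2. The noncoding or copied genes Gm12891, Gm14024 and Gm15428 were higher by 1.52, 1.78 and 1.44. The macrophage and microglia genes Csf1r (4.78), Ctss (3.75), Gpr34 (3.28), Mrc1 (4.99) and Siglech (2.66) were higher in stem too, as were Dll4 (1.74), Egfr (2.64), Egr2 (2.66) and Fos (2.63). The oligodendrocyte genes Car2 (-3.28), Cldn11 (-3.88) and Mbp (-2.82) were lower in stem, as were Higd1b (-4.41) of mural cells and the astrocyte genes F3 (-1.68), Gja1 (-1.24) and Slc7a10 (-1.55). Lower in stem were also Agpat4 (-2.56), Ccdc153 (-2.87), Emx1 (-1.88), Id3 (-1.87), Igfbp2 (-2.19), Snap25 (-1.77), Sntn (-1.74), Stmn4 (-4.13) and Ttr (-2.44).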

How the results depend on the processing

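With libraries scaled by their totals alone, 2288 genes were higher and 516 lower in the pooled contrast, and 1063 higher and 215 lower were shared. Without progenitor replicate 1 and niche replicate 1 together, 1553 were lower in the pooled contrast, 619 higher and 886 lower were shared, and 622 of the pooled calls also differed between stem and progenitor, against 296 with all libraries. Leaving out 1 library at a time gave 704 to 986 higher and 694 to 1338 lower genes in the pooled contrast, 165 to 434 shared higher and 230 to 752 shared lower genes, and 192 to 546 pooled calls that differed between the GFP-positive groups. The highest lower and shared counts came without niche replicate 1, and the cause was not tested. Under median-of-ratios scaling 251 of the 303 shared higher genes and 349 of the 355 shared lower genes kept their call. With the replicate number as a block, since the series' design text has each of 4 replicates give the 3 populations, 903 were higher and 875 lower, with 287 and 373 shared. Deviations of same-numbered libraries correlated at -0.128 to 0.206, and every same-numbered progenitor and niche pair was positive (0.03 to 0.206). Differently numbered progenitor and niche pairs ran from -0.191 to 0.126, so the 2 ranges overlapped. The values above do not use the numbers as pairs, so any matching of replicates is left out of them. Over 108 genes and 22 alternatives, 89 of 2366 values lost their call, 3 gained one, all for Egfr, and none changed sign, with 22 genes losing a call at least once. Of 76 genes called in both groups, 14 lost that call in at least 1 of 21 alternatives, and 62 in none. These genes were named mostly for large differences in the same data, so their stability does not describe all shared genes. Without progenitor replicate 4, only 165 of the 303 shared higher and 230 of the 355 shared lower genes kept their call. Reads of amplified RNA limit the precision of genes near 0 in niche, whose differences depend on the pseudocount.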
